A study of Rattus norvegicus with 250 samples.

Results

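The 3 genes described here, ENSRNOG00000017669, ENSRNOG00000050087 and Etfb (ENSRNOG00000017851), had the strongest differences among families in a cohort of F2 rats, out of 32883 genes in the count table and 19448 tested. They were chosen by these same libraries: across 12 families their moderated F statistics in limma-voom were 33.1, 29.0 and 27.6, and the next gene, ENSRNOG00000019328, stood just outside with 27.1. Family differences are therefore given below as a description with no test. By that contrast 10952 of the 19448 genes (56.3%) differed among families at a false discovery rate (FDR) of 0.10, so a family difference as such was common in these rats.

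Etfb encodes the beta subunit of electron transfer flavoprotein, a mitochondrial matrix protein that accepts electrons from the acyl-CoA dehydrogenases of fatty acid and amino acid breakdown and passes them toward ubiquinone in the respiratory chain. ENSRNOG00000017669 and ENSRNOG00000050087 carry no gene name in the sources used here and are called by their identifiers. Rats of a family share ancestors, and in an intercross the offspring carry different combinations of the alleles of the founding lines. The amount of a transcript can differ among families through inheritance, through rearing or through handling of the tissue, and none of these was tested here.

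The rats were the F2 generation of a cross of the bHR (bred High Responder) and bLR (bred Low Responder) lines, in which breeders had been picked by how much they moved about in an unfamiliar arena. F1 rats with similar activity were mated, and their offspring carried 1 of 12 family labels. Hippocampal tissue was punched from dorsal and ventral hippocampus on one side of each brain at 113 to 132 days of age, polyadenylated RNA was sequenced, and each of 250 libraries came from 1 rat. The 245 libraries without a failed quality label came from 122 males and 123 females, with 13 to 27 rats per family, 123 from the left and 122 from the right hippocampus. Of these rats, 208 had been trained in Pavlovian conditioned approach (PavCA), a task that separates rats that approach a reward cue from rats that approach the place of reward, and 37 had not. Males and females were tested in different batches and killed on different dates, litter was not given by the labels, and rats of a family are relatives, so p-values below measure the spread between rats rather than between independent families.

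Library depth was 17.9 to 31.5 M counts with a median of 21.6 M. Hippocampal excitatory neuron markers were abundant, with medians of 1564 CPM (counts divided by TMM-scaled library size in M) for Slc17a7, 596 for Dkk3 and 51.0 for Homer1, and the oligodendrocyte marker Mag had a median of 195. The microglial marker Tyrobp had a median of 9.43 CPM. Markers of tissue beside the hippocampus varied widely, from 0.211 to 94.7 CPM for the choroid plexus gene Folr1 and from 8.79 to 132 for Slc17a6, which is low in adult hippocampus. Over the 245 rats the covariate-adjusted level of each of the 3 genes correlated with these 7 markers at r between -0.24 and 0.31, and their part in the family differences was not tested. In bulk tissue, fewer cells of a type and less RNA per cell cannot be told apart.

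ENSRNOG00000017669 had the fewest reads and the largest spread of the 3 genes. Its lowest rat had 33 reads, its median rat 140 and its highest rat 345, which corresponded to 1.56, 6.37 and 14.4 CPM and a 9.17-fold range. Its values did not form 1 bell-shaped distribution. Of Gaussian mixtures with 1 to 4 components fitted to log2 CPM, the Bayesian information criterion (BIC, lower is better) was 625, 484, 432 and 443, so 3 components described it best. The components were centered at 2.37, 5.81 and 9.51 CPM and held 67, 70 and 108 rats. On the linear scale the steps between their centers were 3.44 and 3.70 CPM, close to even.

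The lowest level was set apart from the rest by an empty interval: no rat lay between 3.39 and 4.41 CPM. The boundary between the middle and the upper level was less clear, since the highest rat of the middle component had 7.02 CPM, the lowest rat of the upper component had 7.36 CPM, and 6 rats on each side were assigned with a posterior probability below 90%. The 3 levels were found in both sexes, with 31 males and 36 females at the lowest, 39 and 31 at the middle, and 52 and 56 at the upper level. After removal of the technical covariates, sex and training from the log2 values, 2 components had the lower BIC (512, against 516 for 3). These 2 components held 67 and 178 rats, which are the lowest level and the sum of the other levels.

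**Figure D1:**
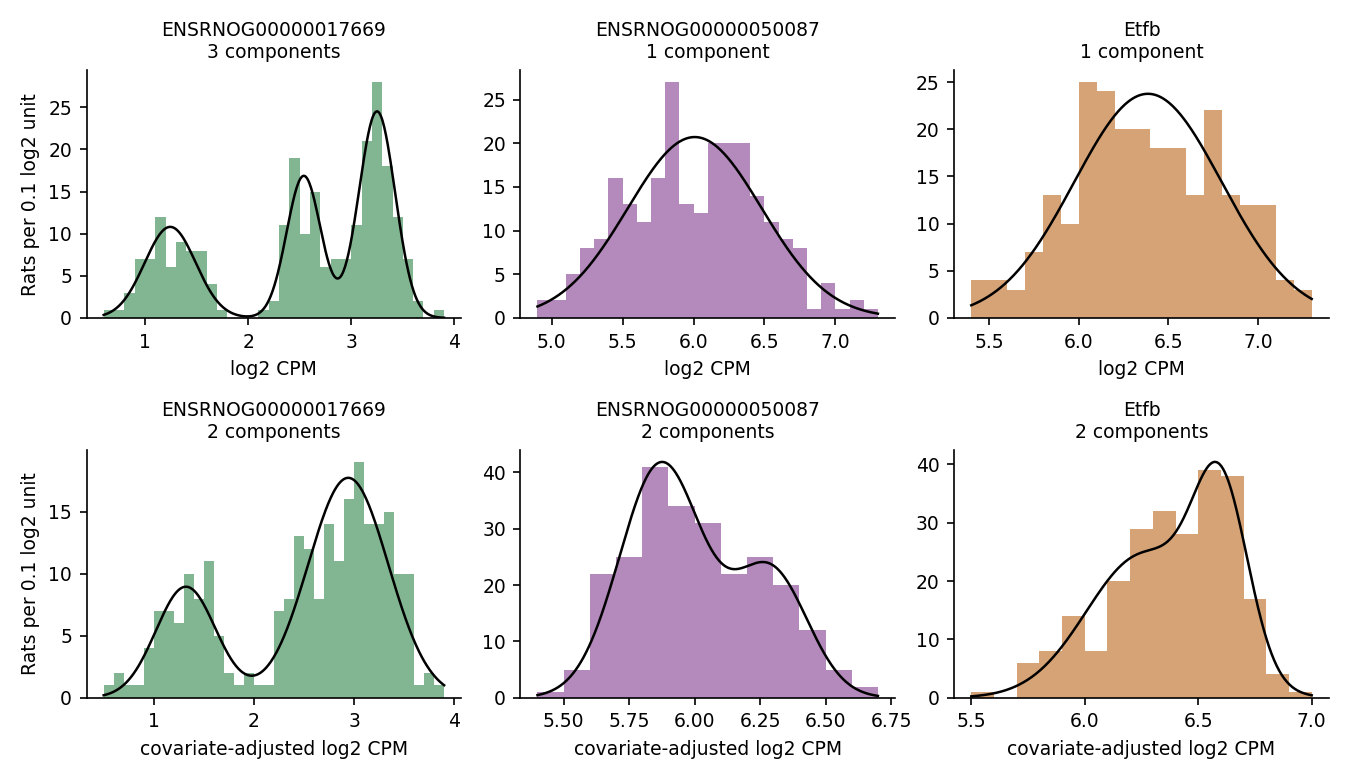
Histograms of the 3 genes in 245 F2 rats in rats per 0.1 log2 unit, on log2 CPM (top) and on covariate-adjusted log2 CPM (bottom), with the Gaussian mixture of lowest BIC as a line. ENSRNOG00000017669 shows 3 humps centered at 2.37, 5.81 and 9.51 CPM in the top row, whereas ENSRNOG00000050087 and Etfb show 1 component before and 2 overlapping components after adjustment.

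Families differed in which levels of ENSRNOG00000017669 they held. All 20 rats of family 8 were at the lowest level, with 1.82 CPM in the lowest rat, a median of 2.42 and a highest of 3.02. All 15 rats of family 10 were at the upper level, from 7.47 through a median of 9.46 to 12.3 CPM. These families did not overlap, and the other families spread between and around them.

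The remaining 10 families were mixtures of levels. No rat of families 1, 2, 6, 9 or 12 was at the lowest level. The upper level held 14 of 17 rats of family 1, 16 of 19 of family 6, 19 of 26 of family 9 and 11 of 13 of family 12, but 7 of 20 of family 2. Medians in these families were 9.52, 8.50, 9.17 and 9.83 CPM, and 6.43 CPM in family 2, which also held the highest rat of the cohort. Family 7 was the only family with rats at the lowest and middle levels and none at the upper level, with 16 and 5 rats and a median of 2.51 CPM.

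All 3 levels were present in families 3, 4, 5 and 11. Family 3 had 1 rat at the lowest, 5 at the middle and 16 at the upper level, and family 4 had the reverse tilt with 15, 9 and 2 rats. Family 5 had 6, 11 and 2 rats and family 11 had 9, 12 and 6. The 27 rats of family 11 spanned 1.86 to 11.7 CPM around a median of 5.41, and the 26 rats of family 4 spanned 1.56 to 8.70 around 3.00, so these families covered most of the range of the cohort by themselves.

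**Figure D2:**
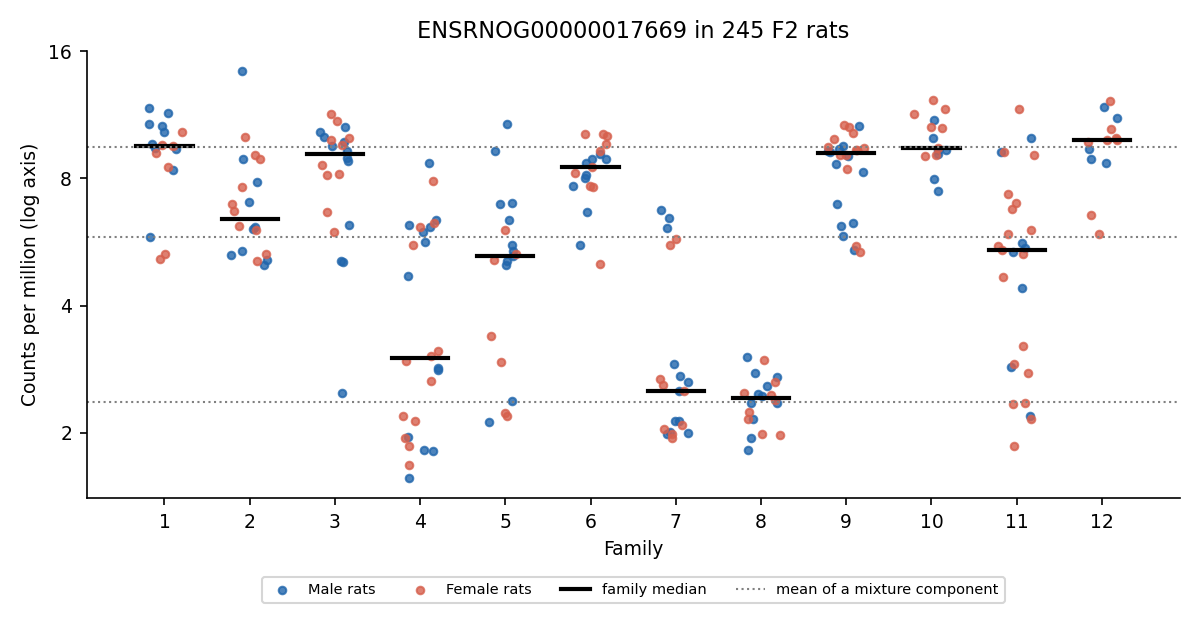
ENSRNOG00000017669 in CPM on a log axis for each of 245 F2 rats by family, with males and females in different colors, family medians as bars and the centers of the 3 mixture components as dotted lines. Family 8 lies wholly around the lowest line at 2.37 CPM and family 10 wholly around the upper line at 9.51 CPM, whereas families 3, 4, 5 and 11 hold rats near all 3 lines.

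In order of mean log2 CPM (mean ± SD over the rats of a family), family 10 was highest at 3.29 ± 0.20 (n = 15), followed by family 12 at 3.24 ± 0.30 (n = 13), family 1 at 3.15 ± 0.37 (n = 17), family 9 at 3.06 ± 0.32 (n = 26), family 6 at 3.04 ± 0.27 (n = 19), family 3 at 3.01 ± 0.51 (n = 22) and family 2 at 2.78 ± 0.40 (n = 20). Families 11 (2.26 ± 0.77, n = 27), 5 (2.23 ± 0.70, n = 19), 4 (1.80 ± 0.80, n = 26), 7 (1.54 ± 0.64, n = 21) and 8 (1.26 ± 0.20, n = 20) followed. Of the 11 steps between neighbors in this order, 9 were smaller than the smaller of the pair's SDs. The exceptions were the step of 0.52 from family 2 to family 11 and the step of 0.28 from family 7 to family 8.

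Families accounted for 62.9% of the variance of ENSRNOG00000017669 in log2 CPM. The share was 72.8%, 60.6% and 55.7% within the 3 sequencing batches taken one at a time. Batch 2 held no rat of families 10 or 12 and batch 3 none of families 3, 5 or 7, so these shares cover unlike sets of families. Dividing families by date of birth, which gave 22 groups, raised the share to 68.1%. In family 11 the median was 2.77 CPM in the 7 rats born on one date, 5.96 CPM in 14 rats born on another and 5.01 CPM in the remaining 6. The rats of family 3 born on one date averaged 3.29 ± 0.14 log2 CPM (SD, n = 12) and those born on the other 2.67 ± 0.59 (SD, n = 10), whereas the birth groups of family 8 lay at 1.24 ± 0.21 (SD, n = 11) and 1.29 ± 0.19 (SD, n = 9).

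ENSRNOG00000050087 and Etfb had more reads and moved with RNA composition. ENSRNOG00000050087 ranged from 31.5 to 157 CPM with a median of 64.4 and a median of 1448 reads, and Etfb from 42.7 to 153 CPM with a median of 83.0 and a median of 1856 reads. Over the 245 rats log2 CPM of ENSRNOG00000050087 correlated with the percentage of reads in intergenic sequence at r = -0.77 and with the percentage in ribosomal RNA at r = 0.82. For Etfb the values were -0.69 and 0.71, while for ENSRNOG00000017669 they were only -0.12 and 0.15. These percentages differed among families as well: mean intergenic reads ran from 11.7% in family 12 to 14.1% in family 2.

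On the unadjusted scale neither gene separated into levels (1 component by BIC), and families accounted for 18.7% of the variance of ENSRNOG00000050087 and 31.2% of that of Etfb. Once technical covariates, sex and training were removed, the SD over all rats fell from 0.47 to 0.25 for ENSRNOG00000050087 and from 0.41 to 0.27 for Etfb on the log2 scale, and the share between families rose to 53.3% and 52.7%. ENSRNOG00000017669 changed little, with SDs of 0.85 and 0.82 and an adjusted share of 56.8%. Sequencing batch was among the covariates removed. Within the 3 batches the adjusted share was 44.7%, 65.5% and 76.2% for ENSRNOG00000050087 and 60.2%, 51.6% and 67.4% for Etfb. The batches held unlike sets of families and the adjustment had no family term, so family and batch were not fully separated.

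On the adjusted scale ENSRNOG00000050087 was high in families 2 (6.34 ± 0.13 log2 CPM, SD, n = 20), 1 (6.32 ± 0.14, n = 17) and 3 (6.24 ± 0.20, n = 22), followed by family 6 (6.12 ± 0.21, n = 19). The other 8 families lay between 5.80 ± 0.18 in family 8 (n = 20) and 5.98 ± 0.16 in family 11 (n = 27). All 11 steps between neighbors were within the smaller SD, the largest being 0.14. A mixture of 2 components centered at 5.87 and 6.29 had the lowest BIC and held 166 and 79 rats, but 33 rats of the lower and 30 of the upper component had a posterior probability below 90%. The upper component took 16 of 17 rats of family 1, 19 of 20 of family 2 and 16 of 22 of family 3, and none of the 13 rats of family 12.

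In plain CPM the order was different. The median of ENSRNOG00000050087 was highest in family 12 at 81.1 CPM (71.8 to 105), the family with the fewest intergenic reads, and was 67.0 CPM in family 2 (45.8 to 142). It was lowest in family 4 at 50.6 CPM (34.4 to 90.8). The ranges of all these families overlapped, and the place of family 12 above family 2 in CPM was turned around by the adjustment.

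Adjusted Etfb was high in families 1 (6.60 ± 0.08 log2 CPM, SD, n = 17), 2 (6.59 ± 0.15, n = 20), 4 (6.58 ± 0.16, n = 26), 5 (6.54 ± 0.16, n = 19) and 11 (6.53 ± 0.20, n = 27). It was lowest in family 8 (5.95 ± 0.23, n = 20) and next lowest in family 3 (6.10 ± 0.25, n = 22), while families 6, 7, 9, 10 and 12 lay between 6.32 and 6.35. The one step larger than the smaller SD of its pair was 0.23, between family 10 and family 3. In plain CPM the median of family 8 was 61.6 (42.7 to 102) and that of family 3 was 65.9 (44.7 to 137), again the lowest of the 12, against 97.2 (76.5 to 152) in family 1 and 111 (71.1 to 131) in family 12.

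The 2-component mixture of adjusted Etfb was a shoulder rather than separate levels. Its centers were 6.26 and 6.60, and none of the 108 rats in the upper component reached a posterior probability of 90%. No rat of family 8 was among them.

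**Figure D3:**
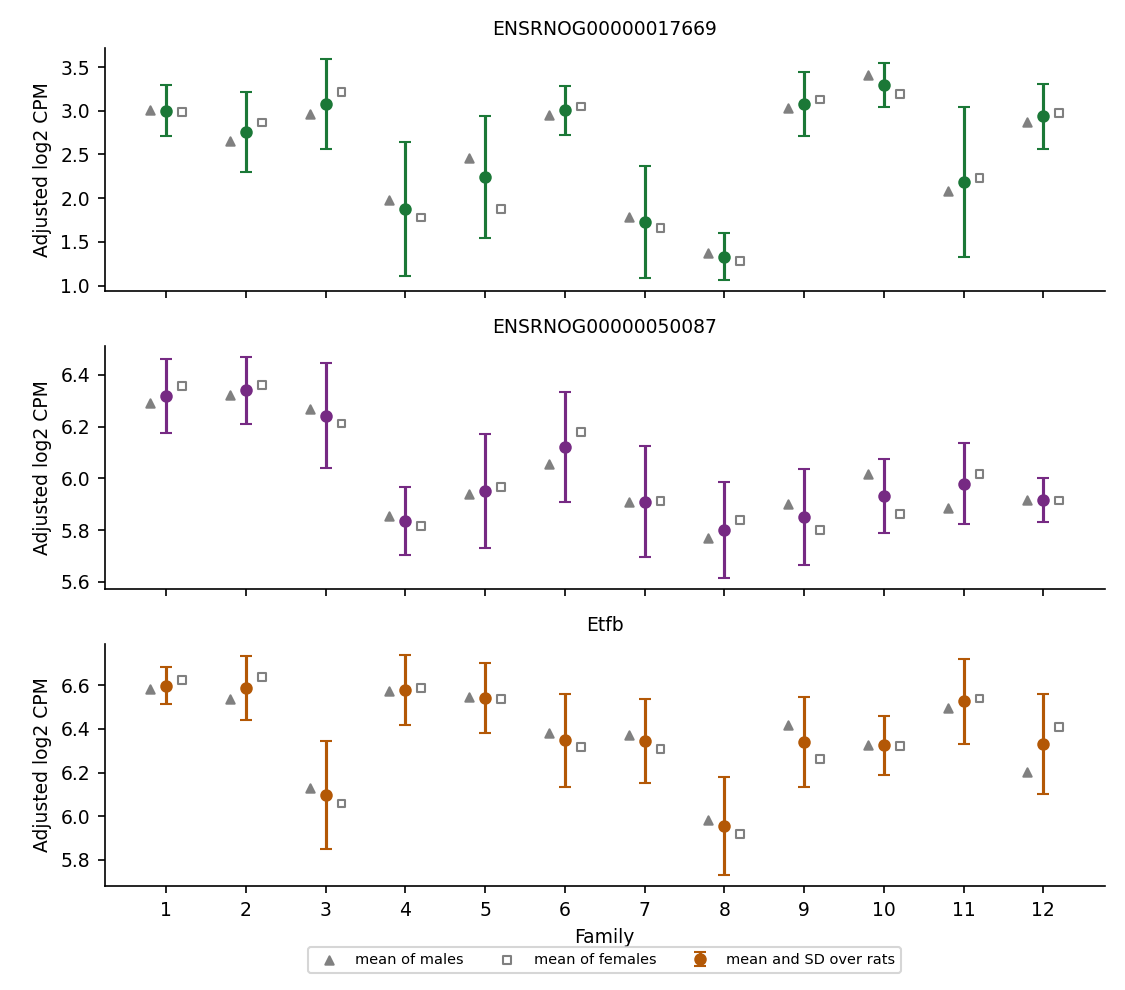
Covariate-adjusted log2 CPM of the 3 genes by family, as mean and SD over the rats (circles and bars), with the means of males (triangles) and females (squares) beside them. Family 8 is lowest for all 3 genes, whereas family 4 is among the low families for ENSRNOG00000017669 and ENSRNOG00000050087 and among the high families for Etfb at 6.58.

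Family means were also taken in each sex. Across the 12 families the mean of the males and the mean of the females correlated at r = 0.95 for ENSRNOG00000017669 and 0.91 for each of ENSRNOG00000050087 and Etfb, as a description over 12 points. Family differences over both sexes together chose the genes, so that choice favored high values. In limma-voom, a family by sex interaction passed FDR 0.10 for 0 of the 3 genes (p = 0.343, 0.436 and 0.744, adjusted p = 0.565, 0.644 and 0.852), while 20.4% of all genes passed for that interaction. The lack of a call does not show that the family patterns of the sexes were the same.

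The next question was whether the 3 genes shared a pattern. On the adjusted scale family 8 was lowest for all 3. For ENSRNOG00000050087 its 5.80 ± 0.18 was close to the 5.84 ± 0.13 of family 4 (SD). In unadjusted log2 CPM family 8 was lowest for ENSRNOG00000017669 and Etfb, but family 4 was lowest for ENSRNOG00000050087 (5.72, against 5.84 in family 8). Other families broke ranks after adjustment: family 3 was among the high families for ENSRNOG00000017669 (3.08 ± 0.52, adjusted log2 CPM, SD, n = 22) and ENSRNOG00000050087 and next to lowest for Etfb, and family 4 was the reverse. Over the 12 adjusted family means, ENSRNOG00000017669 and ENSRNOG00000050087 correlated at r = 0.51, ENSRNOG00000050087 and Etfb at 0.30, and ENSRNOG00000017669 and Etfb at 0.15. These are descriptions, since family means chose the genes.

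Covariation of genes within families was not used by that choice and was tested by permuting rats within families (100000 permutations, two-sided, Benjamini-Hochberg over 3 pairs, 0.05 as the limit). Rats of a family were treated as exchangeable, whatever their birth date or litter. Within families, rho here and below is the correlation of ranks taken over all rats compared, after subtracting each family's mean rank. ENSRNOG00000050087 and Etfb rose and fell together within families, with adjusted values at r = 0.26 (permutation p = 0.00013, adjusted p = 0.00039) and rho = 0.25 (permutation p = 0.00012). Without the 2 rats farthest from the median r was 0.32. It was 0.22, 0.25 and 0.26 within the 3 batches, 0.35 in females and 0.19 in males (permutation p = 0.0608, adjusted p = 0.0913). Before adjustment the same within-family correlation was 0.82, a scale on which both genes followed RNA composition. An adjusted r of this size was not particular to the pair. For ENSRNOG00000050087 a within-family r of 0.39 with another gene, Lyrm1, ranked only 776 by absolute value among 19447 genes. For Etfb a within-family r of -0.25 with LOC102546648 ranked 2379, and the median absolute value over all genes was 0.105.

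For ENSRNOG00000017669 and ENSRNOG00000050087 the within-family r was 0.13 (permutation p = 0.0439, adjusted p = 0.0658) with rho = 0.13 (permutation p = 0.0446, adjusted p = 0.0668). It did not hold within batches, at 0.22, 0.03 and -0.32, and was 0.23 in males and 0.02 in females. ENSRNOG00000017669 and Etfb had a within-family r of -0.04 (permutation p = 0.56) and rho of -0.04 (permutation p = 0.599).

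To place the 3 genes among the rest of the transcriptome, each was correlated with the other 19447 genes over the 245 rats on adjusted log2 CPM. The values are descriptions, since genes share libraries and depth. The median absolute r over all genes was 0.062 for ENSRNOG00000017669, 0.119 for ENSRNOG00000050087 and 0.113 for Etfb.

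A pair of genes stood out for ENSRNOG00000017669. ENSRNOG00000019328 (median of 2134 reads), the gene just outside the choice, reached r = 0.88 and ENSRNOG00000018076 (median of 44 reads) reached r = 0.82, after which the next positive gene fell to 0.35. Both kept much of this within families, at r = 0.76 and 0.65, and over the 12 family means they reached 0.97 for either gene. The median of ENSRNOG00000019328 ran from 74.4 CPM in family 8 to 125 CPM in family 10, the same families that held the lowest and highest means of ENSRNOG00000017669. The most negative genes were ENSRNOG00000021181 (r = -0.50, within families -0.17) and ENSRNOG00000019120 (r = -0.48, within families -0.30). The median of ENSRNOG00000021181 was highest in family 8 at 36.4 CPM and lowest in family 12 at 17.7 CPM.

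For ENSRNOG00000050087 the leading positive genes were ENSRNOG00000001171 (r = 0.51, within families 0.55) and Lyrm1 (r = 0.50, within families 0.39), which encodes a small LYR motif protein. The most negative were Dock1 (r = -0.46, within families -0.44), which encodes an activator of the GTPase Rac, and ENSRNOG00000053945 (r = -0.44, within families -0.40). No gap set these genes off from the others, as the next positive gene stood at 0.49.

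For Etfb the leading positive genes were Vsig10l (r = 0.56, within families 0.35), an immunoglobulin domain gene, and LOC100360527 (r = 0.54, within families 0.41). LOC102546648 (r = -0.44, within families -0.25) and ENSRNOG00000011739 (r = -0.43, within families -0.38) were the most negative. Vsig10l, LOC100360527 and LOC102546648 all start within 1 Mb of Etfb. Without adjustment the sign of Vsig10l turned to r = -0.33, so its positive value depended on the adjustment.

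**Figure D4:**
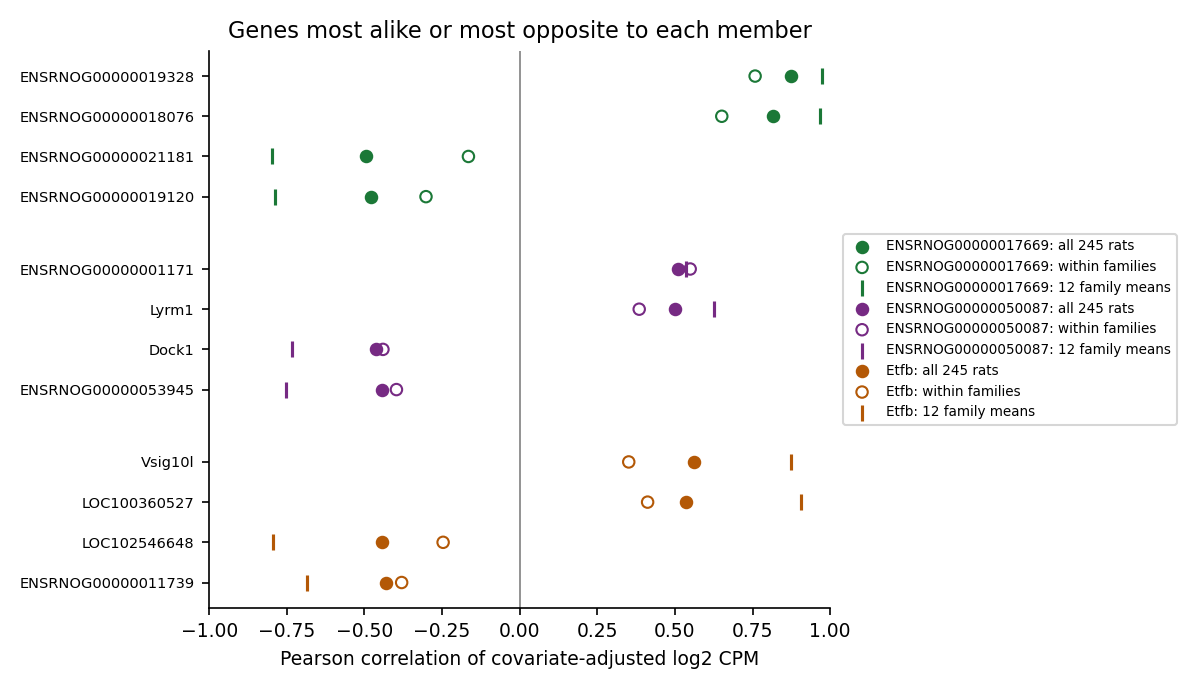
Pearson correlation of each of the 3 genes with the 2 most alike and the 2 most opposite genes among 19447, on covariate-adjusted log2 CPM, over all 245 rats (filled circles), after subtracting family means (open circles) and over the 12 family means (bars). ENSRNOG00000019328 and ENSRNOG00000018076 follow ENSRNOG00000017669 at 0.88 and 0.82, farther from 0 than any gene shown for ENSRNOG00000050087 or Etfb.

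A pair of gene lists was drawn up around Etfb. The first holds the 9 other genes that start within 1 Mb of it. Of these, 4 (44.4%) had an absolute r with Etfb above 0.3, compared with 5.13% of all genes: Vsig10l and LOC100360527 were positive and LOC102546648 and Siglec5 (r = -0.38), a sialic acid binding lectin gene, were negative. Zfp17, a zinc finger gene, stood at 0.30, just under the limit, and Cd33, Iglon5, Vstm2b and LOC102555672 lay between -0.17 and 0.06. Families differed for 7 of the 9 (77.8%), beside 56.3% of all genes. The r values of these neighbors were taken over all rats and include the family differences that chose Etfb. Within families Vsig10l, LOC100360527, LOC102546648 and Siglec5 stood at 0.35, 0.41, -0.25 and -0.34. The median absolute r within families was 0.235 for the 9 neighbors and 0.105 for all genes.

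The second list holds 15 genes of mitochondrial oxidation. It took only genes with an identifier in the part of the study's annotation at hand, so it is not a full set of such genes. Whether chromosome position had a part in their correlations with Etfb was not tested. An absolute r above 0.3 was found for 3 (20.0%): Ndufa3 (r = 0.38) and Ndufab1 (r = 0.32), subunits of respiratory complex I, and Cox6b1 (r = 0.37), a subunit of cytochrome c oxidase. All 3 were positive, and within families they stood at 0.34, 0.29 and 0.32. Acadsb, an acyl-CoA dehydrogenase that hands electrons to electron transfer flavoprotein, had r = 0.13. Families differed for 9 of the 15 (60.0%), near the share of all genes.

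Sex, hippocampal side and training were compared next, contrasts that did not choose the 3 genes. Sex differences were found in 9.08% of all genes and in 0 of the 3 (limma-voom, FDR 0.10). ENSRNOG00000017669 had a lowest, median and highest value of 1.56, 6.33 and 14.4 CPM in males and 1.68, 6.55 and 12.3 CPM in females, and the female minus male difference was -0.099 ± 0.11 (log2, SE, adjusted p = 0.69). ENSRNOG00000050087 ran from 31.5 through 60.8 to 143 CPM in males and from 33.4 through 68.7 to 157 in females, and its difference was 0.022 ± 0.033 (log2, SE, adjusted p = 0.787). Etfb ran from 44.7 through 81.6 to 153 CPM in males and from 42.7 through 83.5 to 148 in females, with a difference of -0.027 ± 0.036 (log2, SE, adjusted p = 0.754). The sexes overlapped almost entirely for each gene.

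Among genes of the lists around Etfb, LOC102555672 was the only 1 of 9 neighbors that passed for sex, beside 9.08% of all genes, higher in females by 0.05 (log2, limma-voom adjusted p = 0.0856). In the mitochondrial list 4 of 15 passed, 2 in each direction, and the median difference of the list was 0.0085 beside -0.0029 over all genes (log2). Acadsb (0.09, adjusted p = 0.0037) and Idh2 (0.08, adjusted p = 0.021), the mitochondrial NADP-dependent isocitrate dehydrogenase, were higher in females, and Ucp2 (-0.15, adjusted p = 0.0115), an uncoupling protein gene, and Cpt1c (-0.06, adjusted p = 0.037), the brain carnitine palmitoyltransferase gene, were higher in males (limma-voom, log2).

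Hippocampal side passed for 0 of the 3 genes and for 0% of all genes in limma-voom. Etfb was the only 1 of the 3 with an unadjusted p under 0.05. It had a lowest, median and highest value of 42.7, 78.1 and 153 CPM on the left and 46.4, 86.8 and 152 on the right, and the right minus left difference was 0.084 ± 0.034 (log2, SE, p = 0.0153, adjusted p = 0.882). Over all genes 5.39% had an unadjusted p under 0.05, so 1 of 3 is not set apart from that share.

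PavCA training passed for 9.19% of all genes and for 0 of the 3 in limma-voom. The trained minus untrained difference was 0.052 ± 0.18 for ENSRNOG00000017669 (log2, SE, adjusted p = 0.916) and -0.051 ± 0.061 for Etfb (log2, SE, adjusted p = 0.716). With sex as the only covariate it was -0.30 for Etfb, which then passed (adjusted p = 0.0037), -0.22 for ENSRNOG00000017669 and -0.18 for ENSRNOG00000050087 (limma-voom, log2). ENSRNOG00000050087 had a lowest, median and highest value of 33.4, 66.3 and 157 CPM in trained females, 31.5, 57.9 and 143 in trained males, 35.6, 74.0 and 123 in untrained females and 44.8, 72.3 and 98.9 in untrained males. Its trained minus untrained difference was 0.096 ± 0.055 (log2, SE, adjusted p = 0.338), and this value depended on which rats were fitted. In males alone it was 0.46 ± 0.12 (adjusted p = 0.0077) and in batch 3 alone 0.27 (adjusted p = 0.0301), but it was -0.13 in batch 2, 0.024 in females, and -0.069 (p = 0.609) in males once family was a term (limma-voom, log2). The 16 untrained males came from 4 families and the 21 untrained females from 8. The test of whether the training difference itself depended on sex gave -0.10 ± 0.091 (log2, SE, p = 0.26, adjusted p = 0.715), with 0.293% of genes passing.

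In the mitochondrial list 1 of 15 genes passed for training: Uqcrc2, a core subunit of respiratory complex III, was higher in trained rats by 0.11 (log2, limma-voom adjusted p = 0.0124). None of the 9 neighbors of Etfb passed, and 9.19% of all genes did.

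The study set hippocampal expression against behavior. Exploratory locomotion was scored as lateral plus rearing beam breaks (LocoScore), and the elevated plus maze, in which time on the open arms is read as low anxiety-like behavior, gave distance traveled, time immobile, percent time in open arms and fecal boli. PavCA gave an index over sign-tracking and goal-tracking and its parts in 205 rats. Families differed in behavior itself, a contrast that did not choose the genes. They accounted for 22.5% of the variance of LocoScore (permutation of rats within sex, p = 1e-05, the smallest these permutations can give, adjusted p = 5e-05), 15.0% for open arm time (permutation adjusted p = 0.00015), 10.8% for distance (permutation adjusted p = 0.0072), 11.4% for the PavCA Index (permutation adjusted p = 0.0165) and 5.67% for immobile time (permutation p = 0.243), adjusted over 5 behaviors. Per the study's methods, siblings that shared a cage shared their test date and, for LocoScore, their test batch. These permutations moved single rats and did not separate family from test date, test batch or litter. Mean LocoScore ran from 293 beam breaks in family 7 to 718 in family 9.

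None of the 3 genes passed for any of 11 behavioral measures in limma-voom at FDR 0.10, and 0 of the 3 passed for the 5 main behaviors by edgeR's quasi-likelihood test or DESeq2, as was so for sex, side and training. Few genes of any kind passed: 0.0103% for LocoScore and for rearing, 0.0154% for lateral movement, 0.00514% for the PavCA Index and for the probability difference of PavCA, and 0% for distance, immobile time, open arm time, fecal boli, response bias and latency. Slopes are given as log2 change per 100 beam breaks, 100 cm, 10 s or 10 percentage points. The distance model omitted 1 rat above 5000 cm (n = 244), and the model of boli had 242 rats.

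For LocoScore the slope of ENSRNOG00000017669 was 0.025 ± 0.018 (log2, SE, limma-voom p = 0.169, adjusted p = 0.998), that of ENSRNOG00000050087 was -0.012 ± 0.0054 (p = 0.0256, adjusted p = 0.896) and that of Etfb was -0.0036 ± 0.0060 (p = 0.544, adjusted p = 0.998). The nominal relation of ENSRNOG00000050087 was seen in both parts of the score, at -0.030 ± 0.014 for lateral movement (log2, SE, limma-voom p = 0.0356, adjusted p = 0.88) and -0.019 ± 0.0085 for rearing (limma-voom p = 0.0266, adjusted p = 0.903). An unadjusted p under 0.05 was thus found for 1 of the 3 genes in each, beside 5.23% of all genes for LocoScore, 5.5% for lateral movement and 5.16% for rearing.

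The size of this relation between and within families was compared as a description. The adjusted level of ENSRNOG00000050087 correlated with LocoScore at r = -0.14 over 245 rats (permutation p = 0.0269, adjusted over 15 relations p = 0.403) and rho = -0.13 (permutation p = 0.0484, adjusted p = 0.258), and at r = -0.14 once the 2 rats of most extreme LocoScore were dropped. Within the 3 batches r was -0.08, -0.23 and -0.12, and it was -0.02 in males and -0.26 in females. Over the 12 family means it was -0.39, and after subtracting family means it was 0.02 (permutation p = 0.742), with 0.15 in males and -0.12 in females. The model with family as a term gave a slope of 0.000113 (p = 0.978, limma-voom).

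Sex by behavior terms passed for 0 of the 3 genes in each of the 5 main behaviors, where the share of all genes was 0.329% for LocoScore, 0.00514% for immobile time and 0% for the rest (limma-voom). The smallest unadjusted p among the 15 terms was 0.109, for ENSRNOG00000050087 and LocoScore. In the lists around Etfb no gene passed for any of the 11 measures. Among the neighbors, Cd33, which encodes a sialic acid binding receptor of myeloid cells, had the smallest p for open arm time, with a slope of -0.05 (p = 0.000126, adjusted p = 0.907, limma-voom, log2 per 10 percentage points).

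For ENSRNOG00000017669 the relations to open arm time and activity were larger within families than over all rats, a difference that was not itself tested. Pooled over all rats its adjusted level correlated with percent time in open arms at r = 0.06 (permutation p = 0.344) and rho = 0.13 (permutation p = 0.0485, adjusted p = 0.258). Within families r was 0.16 (permutation p = 0.0129, adjusted p = 0.0968) and rho was 0.22 (permutation p = 0.00048, adjusted p = 0.0072), with 245 rats and 15 relations in the family of tests. This rho used ranks over all 245 rats minus the family's mean rank, not ranks taken inside each family. The rank correlation was thus the only 1 of 15 within-family relations below 0.05 after adjustment, and the Pearson r was not below it.

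The sign was positive in 11 of 12 families, from 0.02 in family 6 to 0.62 in family 12, and negative in family 8 at -0.42, the family in which every rat was at the lowest level. Within-family r was 0.17 in males and 0.15 in females, 0.12, 0.28 and 0.11 in the 3 batches, and 0.14 without the 2 rats farthest from the median of open arm time. The call of the rank correlation did not hold in every subset: within families rho was 0.205 in each sex (permutation, adjusted p = 0.342 in males and 0.117 in females) and 0.17 without family 9 (permutation, adjusted p = 0.166).

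In limma-voom the slope of ENSRNOG00000017669 on open arm time was 0.037 ± 0.051 per 10 percentage points without a family term (log2, SE, p = 0.474) and 0.11 ± 0.033 with one (p = 0.000994, adjusted p = 0.995). With the family term it ranked 9 among 19448 genes by p, 563 genes had an unadjusted p under 0.05 and 0 passed FDR 0.10.

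**Figure D5:**
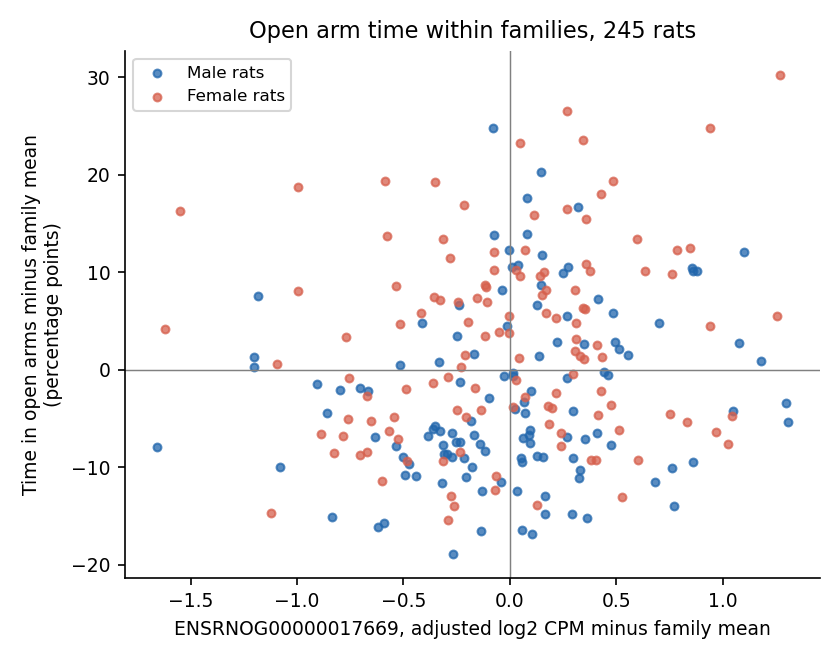
Percent time in the open arms against adjusted log2 CPM of ENSRNOG00000017669, each minus its family mean, for 245 F2 rats, with males and females in different colors. The cloud is wide and tilts upward, with r = 0.16. The rho of 0.22 came from ranks over all 245 rats minus family mean ranks, which are not plotted.

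With LocoScore, ENSRNOG00000017669 correlated at r = 0.09 over all rats (permutation p = 0.151) and at r = 0.17 within families (permutation p = 0.0129, adjusted p = 0.0968), with rho = 0.15 (permutation p = 0.0231, adjusted p = 0.159). The within-family r was 0.05 in males and 0.26 in females and 0.17, 0.15 and 0.10 in the 3 batches. It was positive in 7 of 12 families, led by family 9 at 0.62, and the limma-voom slope with family as a term was 0.033 ± 0.012 (log2, SE, p = 0.00742, adjusted p = 0.845). Over the 12 family means r was -0.02 with LocoScore and -0.06 with open arm time.

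For the PavCA Index, distance and immobile time, within-family r of ENSRNOG00000017669 was 0.08, 0.06 and -0.07 (permutation p = 0.22, 0.365 and 0.259). All 10 within-family relations of ENSRNOG00000050087 and Etfb with the 5 behaviors lay between -0.05 and 0.04, with permutation p from 0.474 to 0.852. By sex they spread wider, from -0.14 to 0.16 in males and from -0.20 to 0.23 in females. Their smallest permutation adjusted p was 0.325 in males and 0.0957 in females, the latter for ENSRNOG00000050087 and immobile time. Etfb, which had 52.7% of its adjusted variance between families that also differed in behavior, showed family mean correlations of -0.20 with LocoScore, -0.27 with open arm time and 0.43 with immobile time, each over 12 points and without a test.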

How the data were processed

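Whole-number read counts per gene, as deposited by the authors, were used. Per the labels and the study's methods the authors aligned unique hits with STAR 2.7.3a to Rnor6 and counted Ensembl genes by strand with Subread 2.0.0. The 19448 genes detected (1 read or more) in a minimum of 25% of rats were fitted with limma 3.58.1 (voom) on TMM factors from edgeR 4.0.16, with sex, ribosomal and intergenic percentages, dissector, PavCA experience (not in PavCA models) and sequencing batch as covariates, Benjamini-Hochberg over all genes and FDR 0.10. Intergenic percentages were derived from the labels' read fractions and batches from breaks in sample numbering. Log2 CPM used a pseudocount of 0.5. Adjusted values are residuals on those covariates plus the gene's mean. Mixtures were fitted with scikit-learn 1.9.0. Of 250 libraries, 5 carried a failed quality label and were left out. The 3 genes and the lists were chosen with earlier results of these data known. Named were the 3 genes, each one's 2 most alike and 2 most opposite genes, and list genes of smallest p. Neighbors and names came from the study's own annotation. Alternatives covered normalization, filters, DESeq2 1.42.0, edgeR, a family term, sexes, batches and left-out families. The fits were tested on simulated data.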

Additional observations from a re-analysis of the deposited data

How the results depend on the processing

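No paired analysis was possible because the labels give no replicate numbers that pair rats across families, so no replicate block could be fitted. Of 636 alternative fits of 24 slopes and differences, 559 kept direction and call, 74 changed sign and 3 changed call. The number of the 3 genes called, 0, was kept in 219 of 222 alternatives and was 1 for PavCA experience with sex as the only covariate, in males only and in batch 3 only. Sign changes of the slopes printed above were, for LocoScore, -0.0298 for ENSRNOG00000017669 in batch 3; 0.000113 with family added and 0.00205 with sex as the only covariate for ENSRNOG00000050087; and 0.00339 with sex only, 0.00361 in males, 0.00658 in batch 3 and -0.0081 to 0.00086 over left-out families for Etfb. For open arm time ENSRNOG00000017669 had -0.00599 in males, -0.0365 in batch 1, -0.0643 in batch 3 and -0.00273 to 0.10 over left-out families, negative only without family 3. Sign changes of the differences printed above were, for sex, -0.0579 for ENSRNOG00000050087 in batch 3 and 0.0134 (sex only) and 0.0238 (batch 1) for Etfb; for training, -0.182 (sex only), -0.0687 (males with family added) and -0.134 (batch 2) for ENSRNOG00000050087, -0.222 (sex only), -0.0368 (family added), -0.0926 (batch 1), -0.0548 (batch 2) and -0.0703 to 0.188 over left-out families, negative without family 10, for ENSRNOG00000017669, and 0.0135 (family added), 0.203 (males), 0.0444 (batch 3) and -0.112 to 0.0214 over left-out families, positive without family 11, for Etfb; for side, -0.0232 for Etfb in batch 3. Signs also changed, for ENSRNOG00000017669, ENSRNOG00000050087 and Etfb in turn, in 3, 2 and 10 of 27 fits for distance, 5, 1 and 4 for immobile time and 3, 4 and 3 for the PavCA Index, in 3 and 1 fits for open arm time of ENSRNOG00000050087 and Etfb, and in 3 and 4 of 26 for side of ENSRNOG00000017669 and ENSRNOG00000050087. With sex as the only covariate the trained minus untrained difference of Etfb was -0.295 (limma-voom adjusted p = 0.0037). Within-family r of ENSRNOG00000017669 and ENSRNOG00000050087 was 0.228 in males (permutation adjusted p = 0.0451) and 0.0976 to 0.186 over left-out families, past 0.05 without family 7 (0.163) or 11 (0.186). For ENSRNOG00000017669 and Etfb it was 0.0233 in females and -0.0611 to 0.0282 over left-out families. For ENSRNOG00000050087 and Etfb it was 0.19 in males and 0.225 to 0.319 over left-out families. The number of components became 2 for each of the 3 genes with covariates removed and 2 for ENSRNOG00000050087 and Etfb by AIC, and the share between families became 53.3% and 52.7% for these 2 genes. The within-family rho of ENSRNOG00000017669 and open arm time was 0.205 in each sex and 0.173 to 0.266 over left-out families, lowest without family 9. The cause of these changes was not tested. The runs in males with family added, the sex by training term and the within-family relations by sex and left-out family were added after seeing the data. ENSRNOG00000017669 rests on the fewest reads of the 3 genes, a median of 140 per rat.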

Other observations

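The 5 libraries with a failed quality label were in no comparison. On CPM scaled over all 250 libraries, ENSRNOG00000017669 stood at 8.83 and 9.41 CPM in the libraries of low RNA integrity from families 2 and 10, at 5.77 in the library of 109.7 M counts from family 9, and at 7.83 and 10.9 in the libraries of family 11 whose sex label went against their sex chromosome genes. Each of these lay inside the range of its labelled family, as did all 5 values of ENSRNOG00000050087 (61.1 to 98.9 CPM). Etfb lay inside the range in 4 of the 5 and was 58.8 CPM in the family 2 library, against 59.9 to 146 in the other rats of that family.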
